A study of Mus musculus with 30 samples.

Results

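Neural progenitor cells (NPCs) derived from Mbd3 knock-out (KO) mouse embryonic stem cells were compared with NPCs from Mbd3 KO cells that re-express full-length MBD3a. The comparison was defined by the 3 MBD3a and the 3 Mbd3 KO columns of a table of RNA-seq counts per gene, 6 of the 24 libraries in that table, and took in every gene. Of 25400 genes in the table, 16582 passed a filter on low counts and were tested. The 3 wild-type (WT) libraries of the table served as the reference level. The study dissected isoforms and domains of MBD2 and MBD3 during neuronal differentiation, and this comparison asks which genes return when MBD3a is present.

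All groups came from HA36CB1 embryonic stem cells of mixed 129×C57BL/6 background that were differentiated in vitro into NPCs, and all RNA was poly(A) RNA. The WT cells carry intact Mbd3. The Mbd3 KO cells were made with CRISPR-Cas9 and a pair of guide RNAs. The MBD3a cells are Mbd3 KO cells with a biotin-tagged MBD3a cDNA inserted by recombinase-mediated cassette exchange at 1 genomic location and driven by the strong, constitutive CAG promoter, so the level and timing of MBD3a do not follow those of the endogenous gene. Endogenous Mbd2 is present in all 3 groups. Each library stands for a separately derived clone according to the study, so a spread between libraries includes differences between clones as well as between differentiations. Which KO clone each MBD3a clone was made from is not given in the sources used here. Differences between clones are therefore part of the comparison with KO. Libraries are named here by their number in the table: s01 to s03 (WT), s04 to s06 (Mbd3 KO) and s07 to s09 (MBD3a), and values of 3 libraries are always given in that order.

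MBD3 is a subunit of the Nucleosome Remodeling and Deacetylation (NuRD) complex, which joins a CHD family nucleosome remodeler with the histone deacetylases HDAC1 and HDAC2, and it occupies the place that MBD2 holds in other copies of the complex. NuRD is known for lowering the expression of genes at promoters and enhancers and for its part in letting embryonic stem cells leave pluripotency. During neural differentiation with retinoic acid, embryonic stem cells give rise to radial-glia-like progenitors that express neural patterning factors, Hox genes and proneural factors, and later to neurons.

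The 6 libraries held between 29752461 and 41444516 counts, WT libraries between 37881563 and 42049423, so that 3 reads corresponded to 0.0664 to 0.104 CPM (counts per 1000000 counts of a library) in the 6 libraries. CPM values are relative to the library size after trimmed mean of M-values (TMM) scaling. Replicates differed by more than counting noise in every pair (chi-square per gene between 10.48 and 186.8), so none was the same library sequenced again. The lowest value was that of the KO pair s05 and s06. This measure cannot tell separate clones from separate preparations of closely related cells. The KO library s04 stood apart from s05 and s06: 136 genes were at least 8-fold lower there than in either of them and 15 at least 8-fold higher. The 15 included non-polyadenylated structural RNAs such as Rmrp (44.7 CPM against 0.819 and 0.979) and Rn7sk (68.4 CPM against 4.96 and 5.40), and Lars2 stood at 3070 CPM against 188 and 171. The 136 genes included Wt1 at 8.26 CPM against 83.0 and 90.4. In the same way 47 genes were higher and 5 lower in the WT library s03 than in s01 and s02, Nanog among them (30.7 CPM against 0.805 and 3.33). Without s04, 5048 genes were called in MBD3a against KO instead of 5371.

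Mbd3 itself was the first gene examined. It stood at 34.2, 73.8 and 69.1 CPM in the KO libraries, 193, 168 and 198 CPM in the MBD3a libraries and 155, 149 and 157 CPM in WT. The MBD3a libraries all lay above WT and the KO libraries all below. The log2 fold change of MBD3a over KO was 1.66 with a standard error (SE) of 0.28 (edgeR quasi-likelihood test, adjusted p = 5.9e-05, n = 3 and 3), and MBD3a exceeded WT by 0.28 on the log2 scale with a 95% interval of -0.28 to 0.84. Without s04 the difference from KO was 1.38. Counts per gene sum all exons, so reads of the construct and of the exons left in the KO allele cannot be told apart, and the KO libraries keep such reads. In the 12 other libraries of KO cells that express MBD2 variants, Mbd3 lay between 36.42 and 86.45 CPM. Mbd2, the paralog that takes the same place in NuRD, stood at 47.3, 38.9 and 36.5 CPM with MBD3a, 65.3, 64.2 and 70.9 CPM in KO and 40.8, 50.4 and 43.8 CPM in WT, lower in every MBD3a library than in any KO library. Its log2 difference of -0.71 (SE 0.21, edgeR adjusted p = 0.00811) did not reach the fold threshold. The labelled cell type was checked with its markers in the MBD3a libraries. Sox2 stood at 282, 305 and 269 CPM and Nes at 283, 306 and 403 CPM. Fabp7 stood at 52.2, 52.0 and 36.6 CPM and Pax6 at 140.3, 134 and 128 CPM. The neural progenitor marker Sox1 is not among the genes of the table, so its level is not known here.

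Putting MBD3a back changed a large part of the transcriptome relative to KO, and in these libraries left no gene called different from WT. Genes of neural progenitors and neurons rose, from the factors that commit progenitors to neurons to cytoskeletal and adhesion genes of the neurons themselves. Genes of embryonic stem cells, germ cells, trophoblast, epithelium and the interferon response fell. In edgeR's quasi-likelihood test, at an adjusted p below 0.05 and a log2 fold change over 1 in size, 5371 of 16582 genes were called (32.4%). Of these 2233 were higher with MBD3a (13.5% of genes tested) and 3138 lower (18.9%). Rises above 4-fold numbered 956 and falls 1825, and 39 genes rose and 52 fell more than 64-fold. The values of the 3 MBD3a and 3 KO libraries were fully apart for 67.4% of all genes tested and for 96.6% of the genes called. Genes called higher held 14.9% to 17.4% of the counts of the MBD3a libraries against 4.28% to 5.67% in KO and 13.6% to 18.6% in WT. Genes called lower held 2.94% to 3.4% of the counts with MBD3a against 12.2% to 14.4% in KO and 2.66% to 3.33% in WT. By annotation, 32.9% of protein coding genes, 45.7% of 164 lincRNA genes, 48.3% of 172 genes of processed transcripts and 12.4% of 461 pseudogenes were called. The libraries are of bulk RNA, in which a smaller number of cells of a type and less RNA per cell cannot be told apart.

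Against WT, the same test called 0 genes in MBD3a (0%), with 293 genes at an unadjusted p under 0.05 (1.77%) and 859 genes whose libraries did not overlap (5.18%). Groups without any true difference would give fractions of about 0.05 and 0.1 of the genes tested, more than the 1.77% and 5.18% seen. These counts are therefore not read as differences from WT. Fewer small p-values than that also mean that the test was conservative here, which limits what 0 calls can show. DESeq2, edgeR's likelihood ratio test and its older quasi-likelihood fit also called 0. WT against KO called 5609 genes (33.8%), 2361 higher in WT (14.2%) and 3248 lower (19.6%). The comparisons of MBD3a and of WT with KO use the same 3 KO libraries, so their values are given side by side. The 5371 genes called in MBD3a against KO had a median absolute log2 fold change of 2.05 against KO and of 0.178 against WT. A call of 0 does not bound a difference, so the 95% interval of the difference from WT was read gene by gene. For 2481 of the 5366 genes with a finite interval (46.2%) the whole interval lay within 1 log2 unit of WT. The median half-width over all genes called was 0.852. The share was 68.1% of the genes called higher and 30.6% of the genes called lower. For the remaining genes the interval did not exclude a 2-fold difference from WT. Leaving out s07 lowered the 5371 genes called to 5000 and the 2481 to 1765.

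**Figure D1:**
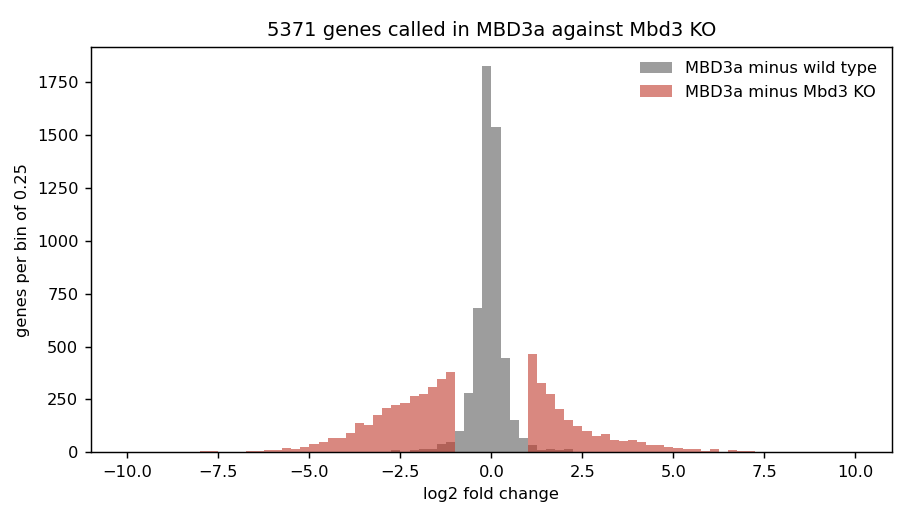
Log2 fold changes of the 5371 genes called in MBD3a against Mbd3 KO (x axis, log2 units; y axis, genes per bin of 0.25), against KO in red and against wild type in grey. The red bars start at 1 on either side because of the fold threshold, while the grey bars are centred near 0, with a median absolute value of 0.178.

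The 10 largest rises among genes averaging 1 or more in log2 CPM with no overlap of libraries were all of genes known in the developing nervous system. Msx3, a homeobox gene of the dorsal neural tube, stood at 257, 200.0 and 222 CPM with MBD3a, 1.34, 1.28 and 1.16 CPM in KO and 289, 219.8 and 150.3 CPM in WT, a log2 fold change of 7.48 ± 0.58 (SE) over KO (edgeR adjusted p = 3.2e-08). All 3 MBD3a libraries lay more than 100-fold above every KO library and within the range of WT. Prdm13, a regulator of dorsal spinal cord neuron identity, stood at 127, 132 and 156 CPM against 0.572, 1.08 and 0.688 CPM in KO (log2 fold change 7.43) and 148, 79.8 and 78.0 CPM in WT. Pax3, Neurod4, Fabp7, Pou3f4, Zic1, Neurog2, Sp8 and Hes5 completed the 10, with log2 fold changes between 6.59 and 7.23. Zic1 lies on the strand opposite Zic4 and the strand setting of the counting is not given in the sources used here, so their reads may be shared. The 10 largest falls were of Sohlh1, Prl2c3, Prl2c2, Khdc3, Prl3d1, Csf1r, Spib, Sox10, Ifit3 and Cdh15. They are genes known in germ cells, placenta, myeloid and lymphoid cells, neural crest, the interferon response and muscle. No cell type is read from single genes among them. Csf1r, the receptor for macrophage colony-stimulating factor, stood at 0.294, 0.273 and 0.278 CPM against 26.2, 17.1 and 23.5 CPM in KO (log2 fold change -6.29). Spib, a transcription factor of lymphoid cells, stood at 0.359, 0.479 and 0.382 CPM against 24.6, 25.1 and 28.3 CPM (log2 fold change -5.99). Cdh15, which encodes M-cadherin of muscle progenitors, stood at 0.163, 0.684 and 0.139 CPM against 21.3, 14.9 and 14.9 CPM (log2 fold change -5.68). These genes were picked for non-overlapping libraries, so only their levels and folds are given as a description.

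**Figure D2:**
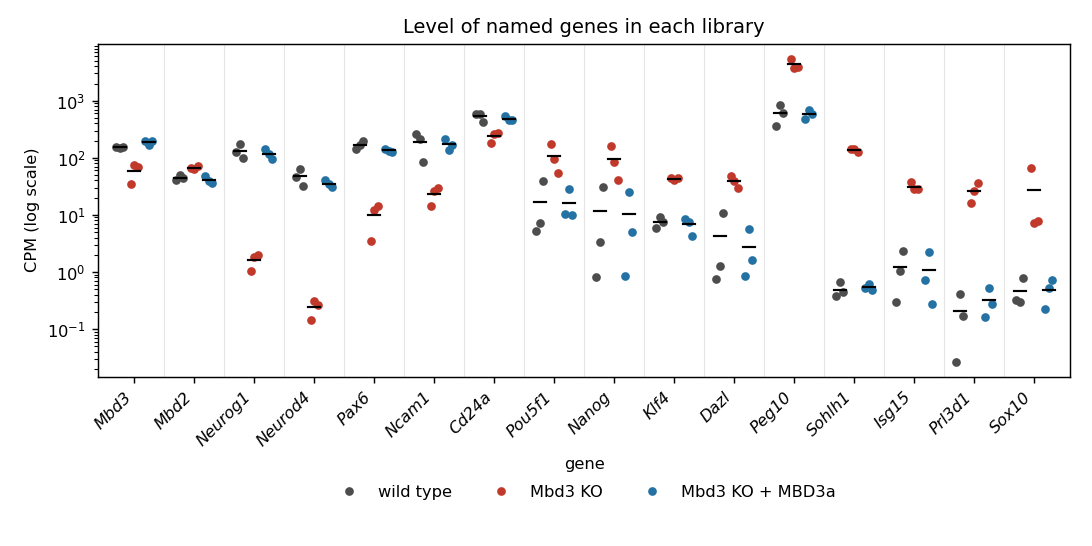
Level of 16 named genes (x axis) in each of 9 libraries in CPM on a log axis (y axis), with points for libraries and a bar for the mean of each group of 3. The red KO points lie below both other groups for Mbd3 and the neural genes. They lie above both for Mbd2, the stem cell, germline, interferon and placental genes, and Sox10, the only neural crest gene shown. The blue MBD3a and grey wild-type points overlap for all of these genes but Mbd3 and Pax6.

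Proneural basic helix-loop-helix factors, which drive progenitors to become neurons, were nearly silent in KO and stood at WT levels with MBD3a. Of 16 listed genes 15 passed the filter, 12 of the 15 were called higher (80%, against 13.5% of all genes tested) and 0 lower, with a median log2 fold change of 4.61 against 0.04 over all genes tested. WT against KO also called 12 higher, with a median of 4.90. Neurog1, a neural determination factor, stood at 141, 116 and 97 CPM with MBD3a, 1.03, 1.86 and 1.96 CPM in KO and 125, 176 and 100.3 CPM in WT (6.17 ± 0.58 on the log2 scale against KO, edgeR adjusted p = 1.88e-07). Neurod4, which acts after the neurogenins, stood at 40.9, 34.6 and 30.3 CPM, 0.143, 0.310 and 0.264 CPM in KO and 45.8, 63.4 and 31.8 CPM in WT (7.15 ± 0.64, edgeR adjusted p = 1.17e-07). For both genes the MBD3a and KO libraries were far apart and the MBD3a libraries overlapped those of WT. Neurog2 stood at 50.4, 40.9 and 40.1 CPM against 0.343, 0.465 and 0.476 CPM in KO. The lineage factors Olig1 and Olig2 also rose, from at most 0.288 CPM in KO to 0.833 to 1.96 CPM for Olig1 and 1.32 to 4.44 CPM for Olig2. Neurod2, Tal2 and Neurog3 were not called, with log2 fold changes of 1.19, 0.47 and -1.25, and all stayed near or under 1 CPM in every library. Between clones these genes spread more than most: the SD of log2 CPM over the MBD3a libraries had a median of 0.43 in the list and of 0.18 over all genes tested, and for 2 of the 15 genes the interval of the difference from WT lay within 1 log2 unit.

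**Figure D3:**
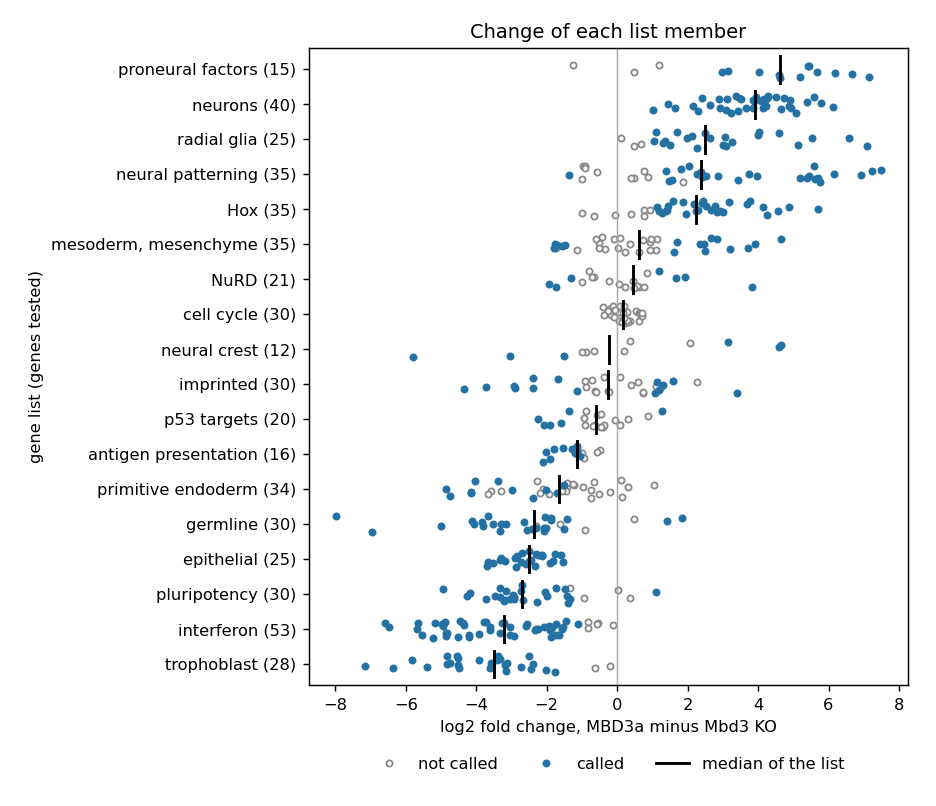
Log2 fold change of MBD3a over Mbd3 KO (x axis) for every tested member of 18 gene lists (y axis, number of genes tested in parentheses), filled where called, with a bar at the median of each list. The lists run from trophoblast at the bottom, with a median of -3.50, to proneural factors at the top, with a median of 4.61, and the cell cycle list has no filled point.

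Factors that pattern the neural tube and specify its classes of interneurons also rose for the most part. Of 36 listed genes 35 were tested, 24 were called higher (68.6%) and 1 lower, with a median log2 fold change of 2.38. WT against KO called 26 higher and 3 lower, with a median of 2.79. Pax3, a paired-box factor of the dorsal neural tube, stood at 187, 186 and 193 CPM with MBD3a, 1.26, 1.28 and 1.22 CPM in KO and 216, 161 and 139.9 CPM in WT (7.23 ± 0.57, edgeR adjusted p = 3.48e-08). The 3 clones agreed closely for this gene and for Zic1, at 155, 158 and 156 CPM against 0.858, 1.28 and 1.72 CPM in KO. Lbx1, of dorsal interneurons, stood at 95.7, 45.1 and 56.4 CPM against 0.400, 1.44 and 2.22 CPM in KO. The interneuron factor Lhx5 stood at 227, 105 and 100.1 CPM against 0.943, 3.12 and 3.78 CPM, and s07 was the highest clone for both. Pax6, of intermediate and dorsal progenitors, stood at 140.3, 134 and 128 CPM against 3.52, 12.2 and 14.1 CPM in KO and 142, 168 and 197 CPM in WT (3.74 ± 0.48, edgeR adjusted p = 4.58e-06), with the reservation that it overlaps Elp4 on the opposite strand. Outside the list, the POU factor gene Pou3f4 stood at 35.7, 34.7 and 37.2 CPM against 0.172, 0.243 and 0.423 CPM in KO. The zinc finger factor gene Sp8 stood at 44.8, 29.8 and 39.6 CPM against 0.200, 0.398 and 0.529 CPM. The 10 members that were not called were Nkx6-1, Nkx6-2, Nkx2-2, En2, Six3, Emx2, Lhx2, Lmx1a, Lmx1b and Isl1, with log2 fold changes between -1.0 and 1.86. The 1 member called lower was Otx1, a forebrain and midbrain factor, at 0.0652, 0.171 and 0.0347 CPM against 0.229, 0.243 and 0.238 CPM in KO and 0.0268, 0.0550 and 0.0487 CPM in WT, all close to the value of a few reads, and without s07 or s09 it was not called. Without s04, 21 members were called higher.

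Genes of radial glia, the dividing neural progenitors, and of the Notch pathway that maintains them rose in nearly the whole list. Of 26 listed genes 25 were tested, 22 were called higher (88.0%) and 0 lower, with a median log2 fold change of 2.48 (2.34 for WT over KO). Fabp7, a fatty acid binding protein of radial glia, stood at 52.2, 52.0 and 36.6 CPM with MBD3a, 0.343, 0.376 and 0.291 CPM in KO and 65.7, 41.3 and 35.7 CPM in WT (7.10 ± 0.62, edgeR adjusted p = 1.17e-07). Hes5, the Notch effector of neural progenitors, stood at 88.4, 89.0 and 77.1 CPM against 0.743, 0.930 and 0.952 CPM in KO (6.59 ± 0.46) and the Notch ligand Dll1 at 134, 106 and 127 CPM against 2.03, 2.85 and 3.04 CPM (5.52 ± 0.38). The clones differed little from each other in these genes and all lay far above KO. Vimentin (Vim) stood at 1172, 1077 and 1215 CPM against 21.8, 98.1 and 92.7 CPM in KO, and here the KO library s04 was the low one. Hes1, a Notch effector that many cell types share, stood at 68.9, 54.8 and 54.3 CPM against 33.4, 48.3 and 45.4 CPM in KO, and its log2 fold change of 0.49 was under the fold threshold. Tnc and Ptprz1 were not called (0.10 and 0.67). The interval of the difference from WT lay within 1 log2 unit for 17 of the 25 genes.

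Genes of postmitotic neurons rose almost throughout the list. All 40 listed genes passed the filter, 39 were called higher (97.5%) and 0 lower, with a median log2 fold change of 3.92 (4.27 for WT over KO). The exception was Slc17a6, a vesicular glutamate transporter with 0 reads in all KO libraries and 3 reads over the MBD3a libraries, for which no fold is given. WT against KO called all 40 higher, Slc17a6 included. The summed level of the list was 5793 to 8625 CPM with MBD3a, 443 to 895 CPM in KO and 4393 to 10160 CPM in WT. Robo3, an axon guidance receptor of commissural neurons, stood at 605, 325 and 336 CPM with MBD3a, 2.94, 6.71 and 8.36 CPM in KO and 794, 447 and 298 CPM in WT (6.13 ± 0.76, edgeR adjusted p = 3.19e-06). The zinc finger factor gene St18 stood at 73.5, 41.2 and 37.3 CPM against 0.400, 1.15 and 1.11 CPM in KO (5.80 ± 0.69) and its relative Myt1 at 159.7, 98.4 and 106 CPM against 0.858, 3.08 and 3.54 CPM (5.59 ± 0.66). In all 3 s07 was the highest clone and s04 the lowest KO library, and without s04 37 of the 40 were called. Tubb3, the neuronal tubulin, stood at 1056, 821 and 776 CPM against 83.6, 94 and 125 CPM in KO (3.13 ± 0.39). The neuroblast gene Dcx stood at 308, 172 and 220.0 CPM against 1.32, 21.9 and 24.5 CPM (3.87 ± 0.84). Ncam1 and Cd24a encode the surface proteins CD56 and CD24, which mark neural progenitors. Ncam1 stood at 217, 138 and 170.2 CPM with MBD3a, 14.2, 25.9 and 29.6 CPM in KO and 261, 215 and 85.2 CPM in WT (2.91 ± 0.45, edgeR adjusted p = 2.99e-05). Cd24a stood at 547, 456 and 457 CPM, 183, 261 and 276 CPM and 576, 592 and 421 CPM (1.02 ± 0.18, edgeR adjusted p = 8.75e-05), the smallest change among the members called. MBD3a and KO did not overlap, but without s04 or s07 the log2 difference was 0.86 or 0.912, under the fold threshold. Markers of other cell types moved against the neuronal genes in the same libraries. Trophoblast genes summed to 3301 to 4350 CPM in KO against 321 to 656 CPM with MBD3a (26 of 28 genes lower), pluripotency genes to 919.7 to 2472 CPM against 487 to 714 CPM (25 of 30 lower) and epithelial genes to 4797 to 5578 CPM against 574 to 1031 CPM (25 of 25 lower). Their part in the neuronal result was not tested.

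**Figure D4:**
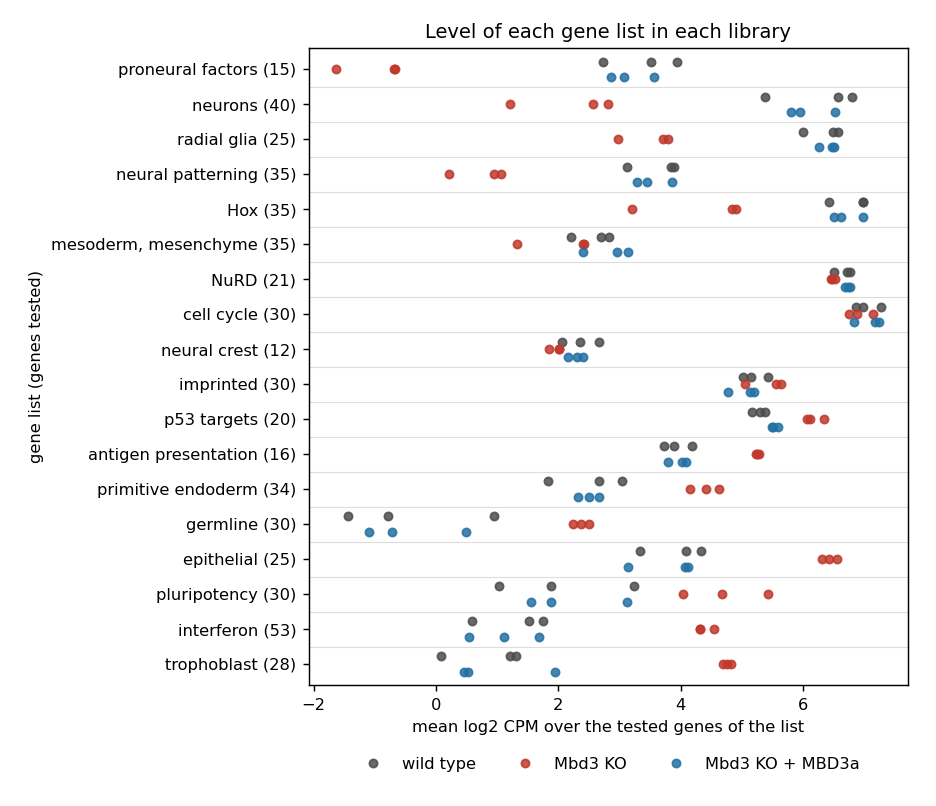
Mean log2 CPM over the tested genes of each list (x axis) in every library of the 3 groups; lists are on the y axis with the number of genes tested. The blue MBD3a points lie within the range of the grey wild-type points for the neural, Hox, pluripotency and germline lists and within or just beyond it for the interferon and epithelial lists. For the trophoblast list the MBD3a clone s08 lies at 1.95, above the highest wild-type library at 1.30. The red KO points lie apart from both other groups in all of these lists.

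Hox genes, which give cells their position along the body axis and respond to retinoic acid, were expressed in KO but at a lower level. Of 36 listed Hox genes and retinoid genes 35 were tested, 28 were called higher (80%) and 0 lower, with a median log2 fold change of 2.24 (2.39 for WT over KO). Without s04, 25 were called. Hoxa6 stood at 98.2, 69.1 and 71.8 CPM with MBD3a, 0.515, 1.84 and 2.12 CPM in KO and 121, 109.7 and 46.7 CPM in WT (5.71 ± 0.70, edgeR adjusted p = 2.74e-06). Hoxb1 went the other way without being called, at 30.5, 26.0 and 22.4 CPM against 24.9, 51.4 and 47.9 CPM (-0.66). The KO libraries s05 and s06 were above every MBD3a library and s04 was within their range. Among retinoid genes, the receptor gene Rarb stood at 327, 257 and 276 CPM against 46.5, 73.1 and 71.3 CPM in KO (2.17 ± 0.29), the retinoic acid degrading enzyme gene Cyp26b1 at 1679.8, 1051 and 1296 CPM against 276, 574 and 647 CPM (1.43 ± 0.35) and its relative Cyp26a1 at 484, 447 and 302 CPM against 361, 479 and 456 CPM (-0.07, not called). Hox genes overlap each other and antisense transcripts in their clusters, so their individual values carry that reservation. For 20 of the 35 genes the interval of the difference from WT lay within 1 log2 unit.

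Genes of the pluripotent state were lower with MBD3a, though not absent, and they set the clones apart from each other. All 30 listed genes were tested, 25 were called lower (83.3%, against 18.9% of all genes tested) and 1 higher, with a median log2 fold change of -2.72 (-2.51 for WT over KO). Pou5f1, the central pluripotency factor, stood at 10.2, 28.8 and 9.86 CPM with MBD3a, 176, 95.3 and 55.0 CPM in KO and 5.26, 7.15 and 38.7 CPM in WT (-2.74 ± 0.79, edgeR adjusted p = 0.00611). Nanog stood at 0.848, 25 and 5.10 CPM with MBD3a, 164, 84.3 and 40.3 CPM in KO and 0.805, 3.33 and 30.7 CPM in WT (-3.23 ± 1.17, edgeR adjusted p = 0.0244). The MBD3a clone s08 and the WT library s03 were the high ones of their groups for both genes, and s04 of KO. The call of Nanog was lost without s04, s07 or s09, at log2 fold changes of -2.60, -2.69 and -2.90. Klf4, a factor of naive pluripotency, stood at 8.41, 7.59 and 4.34 CPM against 44.5, 41.2 and 44.2 CPM in KO and 5.99, 9.19 and 7.60 CPM in WT (-2.67 ± 0.68, edgeR adjusted p = 0.00241), with KO libraries close to each other. The largest falls were of Dnmt3l, a cofactor of de novo DNA methylation that overlaps Aire on the opposite strand (-4.95 ± 1.03), of the growth factor Fgf4 (-4.26 ± 0.83) and of Tdgf1, a co-receptor of Nodal (-4.19 ± 0.67). Sox2, which pluripotent and neural progenitor cells share, was the member called higher, at 282, 305 and 269 CPM against 218, 114 and 64.5 CPM in KO and 277, 264 and 266 CPM in WT (1.11 ± 0.30). Its difference fell to 0.991 without s05 and to 0.761 without s06, under the threshold. Otx2, Lefty2 and Dppa3 were among those not called (0.01, -0.94 and -1.35). The KO library s04 carried the highest level of most of these genes, and without it 18 of the 30 were called lower and Dnmt3l differed by -3.69. The interval of the difference from WT lay within 1 log2 unit for 3 of the 30.

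Germ cell genes, which are silent in most somatic cells and often carry methylated CpG islands, fell in most of the list. Of 35 listed genes 30 were tested, 24 were called lower (80%) and 2 higher, with a median log2 fold change of -2.36 (-2.0 for WT over KO). Bmp15, Figla, Nlrp14, Nlrp5 and Oosp1 did not pass the filter. Sohlh1, a helix-loop-helix factor of spermatogonia and oocytes, stood at 0.522, 0.615 and 0.486 CPM with MBD3a, 144, 144 and 125 CPM in KO and 0.376, 0.660 and 0.438 CPM in WT (-7.98 ± 0.41, edgeR adjusted p = 2.34e-10). Its partner Sohlh2 stood at 1.70, 7.69 and 1.87 CPM, 121, 116 and 122 CPM and 0.698, 2.42 and 11.3 CPM (-4.99 ± 0.90). Both genes were uniform over the KO libraries, and in Sohlh2 the MBD3a clone s08 was the high one. Khdc3, of the maternal complex of oocytes, stood at 0.881, 1.78 and 0.278 CPM against 125, 123 and 119.8 CPM (-6.96 ± 0.55), although it overlaps another annotated gene on its own strand. Dazl, an RNA-binding protein of germ cells, stood at 0.848, 5.74 and 1.63 CPM with MBD3a, 47.1, 39.5 and 29.9 CPM in KO and 0.751, 1.27 and 10.6 CPM in WT (-3.83 ± 0.90, edgeR adjusted p = 0.00141). Again s08 was highest among the clones and s03 in WT. The 2 members called higher were Tdrd9, a helicase of the piRNA pathway, at 1.27, 0.923 and 1.63 CPM against 0.114, 0.376 and 0.555 CPM in KO (1.83 ± 0.51), and Gdf9, an oocyte growth factor, at 1.37, 0.718 and 0.625 CPM against 0.172, 0.310 and 0.529 CPM (1.42 ± 0.55), both under 2 CPM in the 2 groups, and Gdf9 lost its call without s04, s05 or s07. Rad21l, Sycp3, Mael and Tex101 were not called (0.49, -0.90, -1.62 and -2.31). Without s04, 21 members were called lower. The interval of the difference from WT lay within 1 log2 unit for 0 of the 30, so these intervals did not exclude a 2-fold difference from WT.

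Promoters of the germline list were read from the NCBIM37 (mm9) reference genome as the 250 bases before to 50 bases after each annotated gene start. The letters CACGTG, an E-box that reads the same on both strands, occurred in 16 of 30 windows (53.3%) against 1509 of 16578 windows of all genes tested (9.10%) and 264 of 3137 windows of genes called lower (8.42%). The stretches before the gene start that hold it are shown for 4 members that fell and for Tdrd9, which rose, so that the same letters can be seen on both sides of the comparison; the E-box is in capitals. Each is printed 5′ to 3′ on the strand of its gene: Taf7l, chrX:131011030-131011099 (reverse strand), Hormad1, chr3:95363529-95363598 (forward strand), Slc25a31, chr3:40512687-40512776 (forward strand), Sohlh1, chr2:25702769-25703008 (reverse strand), and Tdrd9, chr12:113209590-113209769 (forward strand).
Taf7l: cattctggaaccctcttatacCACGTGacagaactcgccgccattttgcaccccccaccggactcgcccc
Hormad1: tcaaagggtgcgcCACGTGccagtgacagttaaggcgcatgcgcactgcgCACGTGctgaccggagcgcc
Slc25a31: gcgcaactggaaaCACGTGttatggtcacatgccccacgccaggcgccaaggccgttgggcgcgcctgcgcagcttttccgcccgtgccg
Sohlh1: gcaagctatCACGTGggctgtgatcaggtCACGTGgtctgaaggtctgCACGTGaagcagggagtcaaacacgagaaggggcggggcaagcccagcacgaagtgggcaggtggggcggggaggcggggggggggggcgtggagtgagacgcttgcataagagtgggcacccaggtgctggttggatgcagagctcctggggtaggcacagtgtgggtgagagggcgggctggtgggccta
Tdrd9: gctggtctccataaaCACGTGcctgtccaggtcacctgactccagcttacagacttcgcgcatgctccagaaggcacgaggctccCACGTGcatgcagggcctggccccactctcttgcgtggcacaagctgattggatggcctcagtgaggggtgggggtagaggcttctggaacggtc
Sohlh1 held 3 E-boxes and fell by 7.98 on the log2 scale, whereas Tdrd9 held 2 and rose by 1.83. Taf7l, a germ cell variant of a general transcription factor subunit, stood at 0.815, 1.30 and 0.521 CPM against 10.1, 13 and 14.1 CPM in KO (-3.82 ± 0.76). Hormad1, of the meiotic chromosome axis, stood at 0.0978, 0.718 and 0.104 CPM against 4.17, 2.52 and 1.61 CPM (-3.16 ± 0.97), and Slc25a31, a germ cell ADP/ATP carrier, at 0.228, 0.581 and 0.174 CPM against 2.20, 3.92 and 3.57 CPM (-3.30 ± 0.63). A match is a description of the letters in the window and was not tested as a binding site.

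Interferon-stimulated genes, the antiviral program that cells switch on through STAT and IRF factors, were high in every KO library and low with MBD3a. Of 55 listed genes 53 were tested, 47 were called lower (88.7%) and 0 higher, with a median log2 fold change of -3.20 (-3.00 for WT over KO). Their summed level was 345 to 446 CPM with MBD3a, 1669 to 2007 CPM in KO and 324 to 503 CPM in WT. Among the sensors and regulators, Irf7, the factor that amplifies the response, stood at 0.228, 0.581 and 0.139 CPM with MBD3a, 17.4, 13.9 and 13.2 CPM in KO and 0.107, 0.385 and 0.584 CPM in WT (-5.54 ± 0.75), and it overlaps Phrf1 on the opposite strand. Ddx58, which encodes the RNA sensor RIG-I, stood at 7.57, 9.40 and 4.96 CPM against 64.9, 50.6 and 51.8 CPM (-2.93 ± 0.31). Ifih1, which encodes the sensor MDA5, stood at 1.76, 3.11 and 1.6 CPM against 16, 19.1 and 18.4 CPM (-3.05 ± 0.37), and in all 3 genes the groups were far apart. The signal transducers moved less: Irf9 stood at 12.8, 14.9 and 12.3 CPM against 38, 42.8 and 45.4 CPM (-1.66 ± 0.14) and Stat2 at 40.0, 34.9 and 39.3 CPM against 85.4, 58.8 and 59.9 CPM (-0.84, under the fold threshold). The effectors named next had larger falls. Ifit3, which binds viral RNA with its relatives, stood at 0.261, 0.581 and 0.104 CPM with MBD3a, 25.7, 12.2 and 11.5 CPM in KO and 0.349, 0.715 and 0.584 CPM in WT (-5.69 ± 0.83, edgeR adjusted p = 1.55e-05). Oas2, which makes the second messenger that activates RNase L, stood at 0.0326, 0.205 and 0 CPM against 8.46, 6.82 and 6.72 CPM (-6.48 ± 0.93), and Ifi44 at 0, 0.103 and 0.0347 CPM against 4.69, 4.27 and 4.97 CPM (-6.58 ± 0.86). No library of MBD3a came near KO for these genes, and the clone s09 was the lowest for most of the genes named. Oas genes are near-identical neighbours, between which the counting could split reads. Ifitm2 and Ifit2 changed least, at 72.1, 66.5 and 79.1 CPM against 76.5, 80.7 and 81.2 CPM (-0.13) and 7.83, 8.65 and 9.37 CPM against 12.4, 13.5 and 12 CPM (-0.55), neither called. Leaving out any 1 library kept the count at 47, and for 17 of the 53 genes the interval of the difference from WT lay within 1 log2 unit.

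In the same windows at gene starts, the core of the interferon-stimulated response element, GAAA repeated after any 2 letters, was searched on both strands. It occurred in 25 of 53 windows of the interferon list (47.2%), in 537 of 16578 windows of all genes tested (3.24%) and in 146 of 3137 windows of genes called lower (4.65%). Stretches from 5 members that fell are shown because the element lies within 100 bases before the gene start in each, with every match in capitals and overlapping matches run together: Isg15, chr4:155574928-155575027 (reverse strand), Ifit1, chr19:34715251-34715360 (forward strand), Zbp1, chr2:173044425-173044534 (reverse strand), Rtp4, chr16:23609915-23610004 (forward strand), and Oas2, chr5:121199863-121199952 (reverse strand).
Isg15: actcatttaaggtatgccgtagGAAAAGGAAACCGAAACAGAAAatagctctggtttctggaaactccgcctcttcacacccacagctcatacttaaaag
Ifit1: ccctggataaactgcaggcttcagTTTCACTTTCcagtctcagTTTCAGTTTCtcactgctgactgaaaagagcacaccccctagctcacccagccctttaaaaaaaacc
Zbp1: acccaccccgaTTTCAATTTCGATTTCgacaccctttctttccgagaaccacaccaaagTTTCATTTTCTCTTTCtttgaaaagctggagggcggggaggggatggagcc
Rtp4: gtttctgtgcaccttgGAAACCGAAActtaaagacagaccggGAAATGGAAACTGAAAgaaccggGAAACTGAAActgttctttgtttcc
Oas2: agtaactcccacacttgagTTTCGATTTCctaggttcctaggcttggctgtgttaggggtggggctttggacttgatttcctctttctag
Zbp1 and Rtp4 held 4 matches each, Isg15 held 3, Ifit1 held 2 and Oas2 held 1. Isg15, a ubiquitin-like modifier, stood at 0.717, 2.22 and 0.278 CPM with MBD3a, 36.9, 28.3 and 28 CPM in KO and 0.295, 1.05 and 2.34 CPM in WT (-4.85 ± 0.78, edgeR adjusted p = 4.18e-05). Ifit1 stood at 0.881, 1.81 and 0.139 CPM against 27.1, 26.9 and 27.3 CPM (-4.84 ± 0.77) and Zbp1, a sensor of Z-form nucleic acids, at 0.261, 0.957 and 0.174 CPM against 21, 11.5 and 11 CPM (-4.96 ± 0.62). Rtp4 stood at 1.34, 1.85 and 0.139 CPM against 24.2, 25.2 and 24.2 CPM (-4.46 ± 0.77), with s09 at least 8-fold below the other clones. The fold did not follow the number of matches among these 5, since Oas2, with 1 match, fell furthest. Members that were not called held a match too: Ifitm2 at 24 bases before its start (-0.13) and Cxcl10 at 213 bases (-1.87).

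Genes of antigen processing and presentation by MHC class I, which interferon also raises, fell together but by less. Of 17 listed genes 16 were tested, 12 were called lower (75.0%) and 0 higher, with a median log2 fold change of -1.15 (-1.16 for WT over KO). The MBD3a and KO libraries did not overlap for any of the 16 tested, which also held for 67.4% of all genes tested. Psmb8, Tapbp and Psmb10 fell furthest among them: Psmb8, a subunit of the immunoproteasome, stood at 3.55, 4.89 and 1.67 CPM with MBD3a, 12.6, 16.9 and 14.1 CPM in KO and 2.36, 2.94 and 5.14 CPM in WT (-2.11 ± 0.42). Tapbp, which loads peptides onto class I molecules, stood at 39.1, 44.3 and 31.5 CPM against 192, 139.9 and 137 CPM (-2.03 ± 0.25) and the class I gene H2-D1 at 69.0, 72.4 and 61.2 CPM against 263, 203 and 234 CPM (-1.79 ± 0.28). H2-Q4, H2-Q7, H2-T23 and B2m were under the fold threshold, with log2 fold changes between -0.99 and -0.49. Class I genes are a family of near-identical copies, so the split of reads among them is uncertain. The interval of the difference from WT lay within 1 log2 unit for 14 of the 16.

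Trophoblast genes, which mark the lineage of the placenta that embryonic stem cells rarely enter, had the lowest median of the lists. Of 29 listed genes 28 were tested, 26 were called lower (92.9%) and 0 higher, with a median log2 fold change of -3.50 (-3.71 for WT over KO). Their summed level was 321 to 656 CPM with MBD3a, 3301 to 4350 CPM in KO and 363 to 584 CPM in WT. The transcription factors of the lineage were among them: Hand1, of trophoblast giant cells, stood at 2.18, 8.0 and 1.63 CPM with MBD3a, 106, 85.5 and 125 CPM in KO and 1.32, 4.32 and 2.53 CPM in WT (-4.74 ± 0.78). Elf5, of trophoblast stem cells, stood at 0.620, 0.581 and 0.104 CPM against 13.1, 7.30 and 10.1 CPM (-4.51 ± 0.59), Gata3 at 10.2, 10.3 and 8.64 CPM against 31.9, 29.5 and 36.5 CPM (-1.75 ± 0.26) and Cdx2 at 0.946, 2.19 and 0.764 CPM against 3.92, 5.95 and 5.92 CPM (-2.02 ± 0.58). In WT, Gata3 stood at 7.33, 11.6 and 7.33 CPM, while Hand1 was at most 8.0 CPM and Elf5 at most 1.13 CPM in the libraries of MBD3a and WT. Hormones of the giant cells fell furthest: Prl3d1 stood at 0.163, 0.513 and 0.278 CPM against 15.8, 25.8 and 36.6 CPM in KO (-6.35 ± 0.50, edgeR adjusted p = 2.22e-08). Prl2c2 stood at 0.261, 0.991 and 0.208 CPM against 69.8, 63.5 and 74.9 CPM (-7.15 ± 0.61) and Prl2c3, outside the list, at 0.294, 0.957 and 0.208 CPM against 82.5, 69.7 and 87.2 CPM (-7.35 ± 0.64), but members of the Prl2c group are near-identical and the split of their reads is uncertain. Prl8a9 stood at 0, 0 and 0.0347 CPM against 0.915, 0.686 and 0.899 CPM, which is 1 read in all MBD3a libraries against 97 in KO, a ratio with a 95% counting interval of 0.000344 to 0.0782. Tpbpa and Fgfr2 were not called. Tpbpa, of the spongiotrophoblast, stood at 0.261, 7.66 and 0.903 CPM against 2.97, 7.77 and 2.59 CPM, with the clone s08 at the level of KO, and was called lower without s08 (-2.98). Fgfr2, which neural cells also use, stood at 146, 151 and 139.9 CPM against 219.6, 142 and 140.0 CPM.

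The clone s08 carried further placental transcripts. The 17 genes at least 8-fold higher in s08 than in both s07 and s09 included members of the placental Serpinb9, Psg, Ceacam, Prl and cathepsin families, which are hard to tell apart by short reads. Serpinb9e stood at 16.4 CPM against 1.70 and 1.70, Serpinb9g at 13.4 against 1.17 and 0.868, Psg29 at 11.7 against 0.196 and 0.660, and Ceacam15 at 7.93 against 0.228 and 0.312. By the same measure 0 genes were higher in s07 and 6 in s09. Without s08, 27 trophoblast genes were called lower. The part of this clone's placental and stem cell transcripts in the results was not tested beyond leaving it out.

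Epithelial genes, for junctions and keratins, fell without exception in the list. All 25 listed genes were tested and all 25 were called lower (100.0%), with a median log2 fold change of -2.51 (-2.44 for WT over KO). Cdh1, which encodes E-cadherin, stood at 97.8, 117 and 50.1 CPM with MBD3a, 819.7, 574 and 535 CPM in KO and 56.2, 138 and 107 CPM in WT (-2.87 ± 0.39). Epcam stood at 36.5, 34.4 and 16.5 CPM against 217, 205 and 207 CPM (-2.85 ± 0.37) and the placental and epithelial cadherin gene Cdh3 at 19.2, 25.9 and 10.00 CPM against 174, 213 and 249 CPM (-3.53 ± 0.38). In all of them s09 was the lowest clone. Ovol1, a factor that holds cells in the epithelial state, fell furthest (-3.71 ± 0.45), and the desmosomal gene Pkp2 least (-1.52 ± 0.21). Their counterpart Cdh2, N-cadherin of neural cells, stood at 294, 255 and 297 CPM with MBD3a against 6.49, 47.7 and 46.0 CPM in KO and 347, 315 and 208 CPM in WT (3.07 ± 0.57). Zeb1, a repressor of the epithelial state, stood at 109, 85.9 and 111 CPM against 12.9, 16.2 and 13.7 CPM in KO (2.84 ± 0.43), and its relative Zeb2 at 103, 90.3 and 104 CPM against 1.94, 4.69 and 5.24 CPM (4.64 ± 0.53).

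Markers of primitive and visceral endoderm, the extraembryonic layer of the yolk sac, moved unevenly. Of 35 listed genes 34 were tested, 11 were called lower (32.4%) and 0 higher, with a median log2 fold change of -1.64 (-1.49 for WT over KO). Serum protein genes fell: Fga, a fibrinogen chain, stood at 0.457, 0.957 and 0.451 CPM with MBD3a, 16, 16.9 and 20.9 CPM in KO and 0.0805, 0.330 and 0.730 CPM in WT (-4.85 ± 0.95, edgeR adjusted p = 0.00028). Trf, transferrin, stood at 1.08, 1.85 and 0.729 CPM against 37.5, 29.8 and 31.7 CPM (-4.76 ± 0.59) and Fgg at 0.75, 0.649 and 0.174 CPM against 9.78, 7.90 and 10.8 CPM (-4.15 ± 0.89). The lineage factors Gata4, Gata6 and Sox17 were not called, with log2 fold changes of -0.51, -0.65 and 1.03, and their libraries overlapped. Gata4 stood at 7.21, 4.68 and 15.3 CPM with MBD3a and 5.43, 13.9 and 19.3 CPM in KO. Sox7 and Lama1 were near 0 (0.15 and 0.10). This count depended on the model more than any other in the lists: 25 genes were called lower with only the 2 groups in the fit, 20 with DESeq2 and 17 with edgeR's likelihood ratio test, and the cause was not tested.

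Mesoderm and mesenchyme markers rose and fell. Of 36 listed genes 35 were tested, 11 were called higher (31.4%) and 5 lower (14.3%, below the 18.9% of all genes tested), with a median log2 fold change of 0.61. WT against KO called 9 higher and 8 lower, with a median of 0.26. The median log2 difference of MBD3a from WT was 0.32, and its interval lay within 1 log2 unit for 8 of the 35 genes. Among those that rose, the mesenchymal factor Prrx1 stood at 24.2, 11.9 and 26.7 CPM with MBD3a, 0.286, 2.04 and 1.69 CPM in KO and 22.3, 14.7 and 10.3 CPM in WT (3.92 ± 0.59). The fibrillar collagen gene Col3a1 stood at 241, 81.4 and 227 CPM against 1.89, 23.2 and 16.5 CPM (3.72 ± 0.91) and Twist1 at 24.1, 11 and 23.8 CPM against 1.34, 4.65 and 3.23 CPM (2.65 ± 0.46), with s08 the low clone in all 3 genes. Those that fell were T, the primitive streak factor brachyury (0.0652, 0.342 and 0.208 CPM against 0.0858, 0.686 and 1.22 CPM, not called without s06 or s07), Mixl1, Myh6, Tagln and Cdh5. Cdh5, VE-cadherin of endothelium, stood at 25.3, 45.8 and 45.7 CPM against 85.2, 146 and 174 CPM (-1.80 ± 0.40). Kdr, which encodes the surface marker FLK1 of lateral mesoderm, was not called, at 19.7, 14.9 and 51.3 CPM with MBD3a, 4.86, 19.4 and 15.9 CPM in KO and 16.4, 18.6 and 13.3 CPM in WT (1.09), and Col1a2 and Foxc2 were near 0 (0.02 and 0.08). Of 12 neural crest genes 3 rose and 3 fell, 25% each against 13.5% and 18.9% of all genes tested. Foxd3, Tfap2b and Tfap2a, early crest factors that dorsal neural cells also express, rose (4.65 ± 0.89, 4.58 ± 0.70 and 3.15 ± 0.59). Sox10, the factor of migrating crest and glia, fell (-5.81 ± 1.06), at 0.228, 0.513 and 0.729 CPM with MBD3a, 67.5, 7.08 and 7.96 CPM in KO and 0.322, 0.303 and 0.779 CPM in WT. The KO library s04 stood more than 8-fold above s05 and s06 for Sox10, and these in turn lay above every MBD3a library. Without s04 the difference was -3.94 and still called. The glial receptor gene Erbb3 (-3.03 ± 0.42) fell with it, and Ngfr and Ets1 were near 0 (0.19 and 0.37).

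Among the subunits and partners of NuRD itself, most genes changed by less than 2-fold. Of 21 listed genes, all tested, 4 were called higher (19%) and 3 lower (14.3%), shares close to those of all genes tested, with a median log2 fold change of 0.45. Besides Mbd3, the deacetylase gene Hdac2 rose, at 297, 254 and 259.9 CPM with MBD3a, 112, 126 and 118 CPM in KO and 315, 281 and 238 CPM in WT (1.19 ± 0.13, edgeR adjusted p = 1.09e-06). Hdac1 stood at 159, 187 and 158 CPM against 209, 196 and 187 CPM (-0.23, not called). Of the MTA subunits, Mta3 fell, at 35.6, 39.4 and 32.6 CPM with MBD3a, 174, 120.1 and 116 CPM in KO and 31.2, 42.6 and 39.9 CPM in WT (-1.93 ± 0.23, edgeR adjusted p = 2.71e-06), while Mta1 and Mta2 stood at 0.62 and 0.51 on the log2 scale, under the fold threshold. Of the remodelers, Chd5 fell (-1.30 ± 0.32) from 9.52, 13.7 and 11.4 CPM, and Chd4 stood at 1016, 878 and 1138 CPM against 752, 739.6 and 729 CPM (0.45, not called). The Sall zinc finger factors, which bind NuRD, split: Sall3 and Sall2 rose (3.83 ± 0.50 and 1.92 ± 0.37), Sall4, of stem cells, fell (-1.73 ± 0.42) and Sall1 was under the threshold (0.76). For 18 of the 21 genes the interval of the difference from WT lay within 1 log2 unit.

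Imprinted genes, expressed from 1 parental allele and often high in placenta, moved in both directions, in shares near those of all genes tested. Of 36 listed genes 30 were tested, 6 were called higher (20%, against 13.5% of all) and 8 lower (26.7%, against 18.9%), with a median log2 fold change of -0.25. The summed level was nonetheless far lower, at 5917 to 7307 CPM with MBD3a against 16590 to 21000 CPM in KO and 5379 to 7489 CPM in WT, and 3 transcripts that alone held most of it in KO fell. Peg10, a retrotransposon-derived gene needed in placenta, stood at 469, 677 and 586 CPM with MBD3a, 5418, 3783 and 3941 CPM in KO and 366, 832 and 598 CPM in WT (-2.92 ± 0.41, edgeR adjusted p = 9.88e-06). The noncoding RNA H19 stood at 1142, 987 and 985 CPM against 9603, 6106 and 7458 CPM (-2.90 ± 0.42) and its neighbour Igf2, a fetal growth factor, at 556, 330.2 and 627 CPM against 3075, 2098 and 2819 CPM (-2.40 ± 0.52). The MBD3a and KO libraries of these genes were far apart and those of MBD3a and WT mixed. The placental genes Phlda2 and Slc22a18 fell too (-4.34 ± 0.66 and -3.73 ± 0.41). Rises were of Peg12, at 66.2, 70 and 69.8 CPM against 5.92, 7.57 and 5.92 CPM (3.4 ± 0.29), and of Ndn, Mkrn3, Magel2, Nnat and Usp29, of which Peg12, Ndn, Mkrn3 and Magel2 lie in the Prader-Willi region. The calls of Nnat and Usp29 were lost without s04, s06 or s07, and that of Magel2 without s07. Cdkn1c and Zrsr1 were near 0 (0.09 and -0.24). Grb10 was not called, at 474, 543 and 10.9 CPM with MBD3a and 55.8, 158 and 231 CPM in KO: s09 alone was low. Plagl1 was high in the same clone (59.1, 58.3 and 414 CPM), and so was Peg3 (485, 423 and 1287 CPM), while the Peg3 neighbour Zim1 was low (10.8, 6.56 and 0.694 CPM).

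Cell division genes gave no calls. All 30 listed genes were tested, and edgeR's quasi-likelihood test called 0 at the fold threshold in either direction. In that test 8 of the 30 had an unadjusted p under 0.05, against 10274 of all 16582 genes tested. Regardless of fold, 7 had an adjusted p under 0.05, against 9584 of all genes tested. The log2 fold changes of the list lay between -0.39 and 0.70 with a median of 0.17. The interval of the difference from WT lay within 1 log2 unit for all 30. DESeq2 and the likelihood ratio test also called 0 higher. The p53 response list also held inhibitors of cyclin-dependent kinases such as Cdkn1b, Cdkn2a and Cdkn2b, so its calls are not read as p53 activity. Of its 20 genes 1 rose and 5 fell (25%, near the 18.9% of all genes tested), with a median of -0.60. Cdkn1b, the inhibitor of cyclin-dependent kinases that rises as progenitors leave the cycle, rose, at 154, 124 and 128 CPM with MBD3a, 68.6, 52.1 and 48.2 CPM in KO and 148, 161 and 126 CPM in WT (1.27 ± 0.16). Cdkn2a and Cdkn2b, cell cycle inhibitors linked to senescence, fell (-2.26 ± 0.54 and -2.09 ± 0.45), as did Perp (-1.90 ± 0.26). Cdkn1a and Mdm2, direct p53 targets, were not called (-0.38 and -0.47), and neither was Sesn1 (-0.07).

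Mitochondrial transcripts and tubulins were among the genes with most reads. Protein coding transcripts of the mitochondrial genome, 13 in number, summed to 8830 to 10550 CPM with MBD3a, 18480 to 19320 CPM in KO and 10370 to 12980 CPM in WT. Of these 8 were called lower (61.5%, against 18.9% of all genes tested) and 0 higher, with a median log2 fold change of -1.12. WT against KO called 1 lower with a median of -0.82. The 13 are cut from long shared precursor transcripts and are not separate observations. ND1 stood at 678, 666 and 813 CPM against 1551, 1541 and 1682 CPM (-1.15 ± 0.17) and CYTB at 649, 690.1 and 753 CPM against 1383, 1565 and 1679 CPM (-1.15 ± 0.17). Of 12 tubulin genes 8 rose and 3 fell. Tuba1a, an alpha tubulin of neurons, stood at 4435, 3847 and 3464 CPM with MBD3a, 871, 860.5 and 899 CPM in KO and 4523, 3852 and 3917 CPM in WT (2.16 ± 0.23). Tuba1b, Tuba1c and Tubb5 rose by smaller folds (1.02 ± 0.16, 1.24 ± 0.18 and 1.01 ± 0.12), and Tuba1b and Tubb5 slipped under the fold threshold without s05, s06 or s07. Tuba4a, Tuba8 and Tubb6 fell (-2.52 ± 0.43, -4.60 ± 0.38 and -1.38 ± 0.18). Coding sequences of tubulins are near-identical, so reads may be shared among them. Scd2, a lipid desaturase gene of the nervous system, stood at 2284, 1891 and 3248 CPM against 560.1, 471 and 461 CPM (2.31 ± 0.31). The mitochondrial and tubulin lists were drawn up after the values were seen.

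Promoters of genes called lower held fewer CpG-rich windows than those of other genes, which is given as a description without a test. A window was taken as CpG-rich where its observed to expected CpG ratio exceeded 0.6. Among all genes tested 59.2% of windows were CpG-rich (9820 of 16578), against 56.5% of genes called higher, 35.4% of genes called lower and 66.4% of genes not called. The median ratio was 0.686 for all genes, 0.664 for genes called higher and 0.450 for genes called lower. The lists differed as well: 12.5% of windows in the antigen presentation list, 24.5% in the interferon list, 28.6% in the trophoblast list and 30.0% in the pluripotency list were CpG-rich, against 60% in the germline list and 74.3% in the neural patterning list. The shares move with the ratio chosen, and that of the antigen presentation list was 50.0% at a ratio of 0.5. Genes called lower had a smaller share than genes called higher and genes not called at a ratio of 0.5 (45.3% against 68.0% of all genes), at 0.75 (19.9% against 41.5%) and in RefSeq windows (39.1% against 65.9%). The neuronal E-box CAGATG, searched on both strands, occurred in 5 of 15 windows of the proneural list (33.3%), in 6 of 16 of the antigen presentation list (37.5%), in 0 of 35 of the neural patterning list and in 12.9% of all windows. The letters ATGCAAAT, the octamer of POU factors, occurred in 1 of 30 windows of the pluripotency list, in 3 of 28 of the trophoblast list and in 1.53% of all windows. DNA methylation was not measured in these libraries.

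The genes farthest from WT were mostly scarce. Of the 5371 genes called against KO, 274 had an MBD3a to WT log2 difference above 1 in size, and 24 of the 274 reached 1 CPM on average in MBD3a or WT. Libraries of MBD3a lay fully apart from those of WT in 236 of the 5371 (4.39%, against 5.18% of all genes tested). Among these, Aplnr, the apelin receptor of endothelial and mesodermal cells, had the largest difference at a level of 1 CPM or more: 0.881, 0.786 and 14.2 CPM with MBD3a, 0.457, 0.398 and 0.212 CPM in KO and 0.483, 0.550 and 0.706 CPM in WT, a log2 difference of 3.17 from WT with an interval of 1.54 to 4.80 (unadjusted p = 0.000639, edgeR adjusted p = 1). The clone s09 carried nearly all of it, and without s09 the log2 fold change over KO was 1.22. The other 9 of the 10 largest, C3ar1, Casp12, Dpy19l2, Drc7, Dyrk4, Fitm1, Lrrc6, Morc2b and Ms4a2, rested on 0 to 10 reads in all MBD3a libraries together, and their order against WT is not detectable at this depth. C3ar1, the receptor of complement fragment C3a, stood at 0.0652, 0.0684 and 0.208 CPM with MBD3a, 4.03, 1.48 and 1.96 CPM in KO and 0, 0.0275 and 0.0243 CPM in WT, that is 10 reads with MBD3a, 282 in KO and 2 in WT. Drc7, a gene of cilia, had 0 reads with MBD3a against 19 in KO and 8 in WT.

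Single clones differed from the others at the level of chromosomes and genes. Over genes above 5 CPM, the median of chromosome 19 in the clone s09 lay 0.275 log2 units above the WT mean, against 0.0405 and 0.0189 in s07 and s08. Chromosome 1 was low in all KO libraries, at -0.585, -0.309 and -0.226 relative to the WT mean in s04, s05 and s06, while the MBD3a clones lay at 0.0116, -0.0154 and 0.00994. The median log2 fold change of MBD3a over KO was 0.365 on chromosome 1 and between 0.0319 and 0.206 on the others, and 19.2% of the genes tested on chromosome 1 were called higher, against 19.9% on chromosome 18 and 13.5% of all. Whether these shifts reflect DNA copy number or expression was not tested. The genes at least 8-fold higher in s09 than in the other clones were Aplnr, the lymphatic endothelial receptor gene Lyve1 (2.78 CPM against 0.261 and 0.137) and the embryonic and fetal globin genes Hba-x, Hba-a1, Hba-a2 and Hbb-y (2.60, 2.33, 2.05 and 1.87 CPM, all at most 0.171 CPM in s07 and s08). The endothelial genes Pecam1 and Cdh5 did not set s09 apart in the same way (11.5, 11.9 and 18.4 CPM and 25.3, 45.8 and 45.7 CPM). The alpha globin genes are near-identical copies. Across all genes tested, the SD of log2 CPM over the 3 clones had a median of 0.180 with MBD3a, 0.185 in KO and 0.290 in WT.

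**Figure D5:**
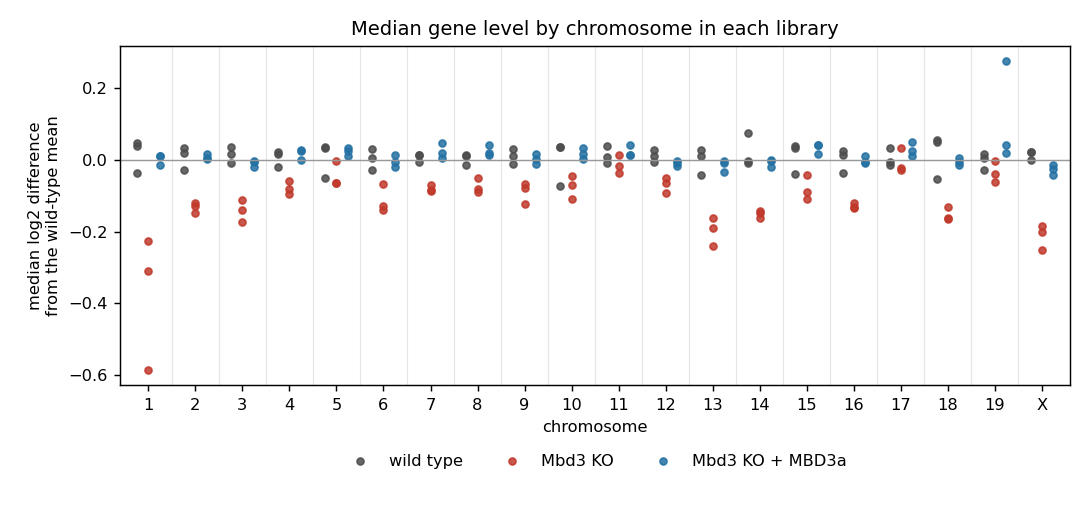
Median over genes above 5 CPM of the log2 difference from the wild-type mean (y axis) for each chromosome (x axis), with 1 point per library and colours for the groups. Chromosome 1 lies at -0.585, -0.309 and -0.226 in the KO libraries s04, s05 and s06, lowest of the chromosomes in s04 and s05, and chromosome 19 is highest in 1 MBD3a clone, at 0.275.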

How the data were processed

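RNA-seq was available for 24 NPC libraries of 8 lines, 3 per line. Per the labels and the study's methods, the authors trimmed reads with Trim Galore, aligned them with STAR to mm9 (NCBIM37) and counted reads per GENCODE gene with qCount of QuasR, and the deposited values are raw whole-number counts. The strand setting of the counting is not given in the sources used here. Genes that overlap or have near-identical copies are therefore uncertain.

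Here, edgeR 4.0.16 (R 4.3.3) was run on the counts with filterByExpr, TMM scaling and glmQLFit over all 24 libraries, so that the spread was shared between lines. The MBD2t libraries among them are triplicates of 1 clone per the study, while p-values otherwise rest on separate clones. A gene was called at a Benjamini-Hochberg adjusted p below 0.05 and a log2 fold change over 1 in size. Log2 CPM used a prior count of 1. With 3 against 3 libraries, an exact permutation test of a single value cannot go below 0.1, so none was used. Intervals are 95% intervals of the fit, and counting intervals cover counting error only. DESeq2 1.42.0, other scalings, filters and thresholds were tried as alternatives. The fit was tested on simulated data.

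Members and gene lists were chosen with earlier results of these data known. The named genes are those fixed for the comparison (Mbd3, Mbd2, Cd24a, Ncam1, Neurog1, Neurod4, Pax6, Pou5f1, Nanog, Klf4, Peg10 and Dazl), the 10 genes that rose most and the 10 that fell most (called, averaging 1 or more in log2 CPM, groups apart), the 3 largest changes, 2 smallest changes and contrary calls of each list, and, among called genes, the 10 farthest from WT with no overlap and the 10 with the highest mean CPM. Other genes were chosen after their values were seen. Promoter windows were read from NCBIM37, since fewer than 80% of genes matched a RefSeq window. Some genes that the rule names or the lists hold are not reported here.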

Additional observations from a re-analysis of the deposited data

How the results depend on the processing

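No paired analysis was possible because the columns carry library numbers but no replicate numbers. Counts of genes called in MBD3a against KO were 9584 with the adjusted p alone and 3237 with glmTreat, which tests against the fold threshold, and 9990 and 3469 for WT against KO. MBD3a against WT gave 93 genes at an unadjusted p under 0.05 with the fold threshold. Primitive endoderm genes called lower numbered 25 with only the 2 groups in the fit, 17 with the likelihood ratio test and 20 with DESeq2, and p53 response genes called lower 8 without TMM scaling; the cause was not tested. With 99% intervals, 1551 called genes lay within 1 log2 unit of WT. The median SD over MBD3a clones was 0.181 and 0.179 at prior counts of 0.5 and 2. CpG-rich shares at ratios of 0.5 and 0.75 and in RefSeq windows were 68.0%, 41.5% and 65.9% of all genes, 67.2%, 36.4% and 62.3% of genes called higher and 45.3%, 19.9% and 39.1% of genes called lower.

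Leaving out 1 library at a time gave 5000 to 5414 genes called in MBD3a against KO, 5126 to 5846 in WT against KO, 0 in MBD3a against WT, 1765 to 2517 with the interval within 1 log2 unit and a log2 difference of 1.38 to 1.83 for Mbd3. Members called were 12 proneural, 20 to 24 patterning, 20 to 22 radial glia, 37 to 39 neuronal, 25 to 28 Hox, 18 to 25 pluripotency, 21 to 26 germline, 47 interferon, 12 to 14 antigen presentation, 26 to 27 trophoblast, 8 to 12 primitive endoderm, 9 to 13 mesoderm, 3 neural crest, 25 epithelial, 4 to 5 NuRD, 7 to 9 imprinted, 0 cell cycle and 5 to 7 p53 genes.

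Of 139 named genes, none reversed, and between 2 and 13 lost their call in a setting, 13 without s07. Scaling moved the median log2 fold change of all genes from 0.0395 with TMM to -0.0314 with relative log expression, -0.0597 with upper quartile and -0.102 with library size alone, and the share of calls that were higher from 41.6% to 38.4%, 37.4% and 35.4%. Depth and spread limit genes of few reads: 791 called genes were under 1 CPM on average in all 3 groups. The alternatives for WT against KO, the older quasi-likelihood fit of edgeR and the comparison of genome with RefSeq windows were chosen after seeing the data.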

Other observations

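Transcripts of the Y chromosome differed between clones of the same group, and none of the 3 genes tested was called in MBD3a against KO or against WT, while WT against KO called 2 of the 3 higher. Uty stood at 10.0, 2.19 and 0.694 CPM in the MBD3a clones s07, s08 and s09, at 1.94, 2.04 and 0.899 CPM in KO and at 17.6, 13.9 and 9.25 CPM in WT. Eif2s3y stood at 10.7, 1.67 and 0.451 CPM, at 6.86, 4.76 and 1.27 CPM and at 29.1, 17.4 and 20.6 CPM in the same order. Ddx3y stood at 6.82, 1.74 and 0.486 CPM, at 7.89, 7.37 and 3.17 CPM and at 7.49, 9.60 and 4.94 CPM. The clone s09 was the lowest of these 9 libraries in all 3 genes, and the cause was not tested.

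No gene was called in MBD3a against WT. Among the genes with the smallest unadjusted p of that comparison were the embryonic globin gene Hba-x (0.000357), the mitochondrial ATP8 (0.000557) and Aplnr (0.000639), and all 3 had an adjusted p of 1 in edgeR's quasi-likelihood test. ATP8 stood at 89.3, 100.4 and 106 CPM with MBD3a, 208, 219.7 and 228 CPM in KO and 147, 207 and 118 CPM in WT.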
